A study of Mus musculus with 4 samples.

Results

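The genes of oxidative phosphorylation were compared between cortical astrocyte libraries of Ezh2 cKO and Ezh2 f/f mice. The members were the protein-coding genes of the count table whose symbols begin with Nduf, Uqcr, Cox4, Cox5, Cox6, Cox7, Cox8, Atp5, mt-Nd, mt-Co, mt-Cyt or mt-At, together with Sdha, Sdhb, Sdhc and Sdhd. They came to 108 of 29224 genes, of which 95 are encoded in the nucleus and 13 in the mitochondrial genome. Among the nuclear-encoded members, 84 are subunits of complexes I to V. The other 11 are 8 assembly factors of complex I, the supercomplex factor Cox7a2l and 2 copies of subunit genes, Ndufb11b and Cox5b-ps. The cells were taken from the cerebral cortex of pups at postnatal day 5 with magnetic beads against GLAST (ACSA-1), a glutamate transporter on the astrocyte surface. Of the 4 libraries, 2 came from Ezh2 f/f mice, whose Ezh2 alleles are floxed, and 2 from Ezh2 cKO mice, which carry the same floxed alleles with Aldh1l1-icre, a recombinase under the promoter of an astrocyte gene. Ezh2 is the catalytic subunit of Polycomb repressive complex 2, so the comparison asks how the respiratory chain genes differ when it is deleted under that promoter.

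Oxidative phosphorylation takes place in the inner mitochondrial membrane. Complex I oxidises NADH, complex II oxidises succinate, complex III passes the electrons to cytochrome c and complex IV passes them to oxygen. Complexes I, III and IV pump protons, and complex V, the ATP synthase, makes ATP from the gradient. All complexes except complex II mix subunits of both genomes. Core subunits carry the redox centres, the proton path or the rotor, and accessory subunits surround them.

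Total counts were between 16273308 and 17522152 per library. Ezh2 had 25.4 and 20.8 CPM (counts normalised for library size with the TMM factors of edgeR) in Ezh2 f/f against 11.97 and 9.47 in Ezh2 cKO, with a log2 fold change of -1.11 (SE 0.16, edgeR adjusted p = 3.26e-05). The series differs widely between the groups: of 16793 genes tested, 34.7% rose and 33.6% fell in the cKO, 68.4% in either direction (adjusted p threshold 0.05). Markers of several cell types moved too. Of 15 astrocyte markers 13 were higher and 0 lower, and their summed level was 899 and 984 CPM in Ezh2 f/f against 4136 and 3718 CPM in Ezh2 cKO. Of 15 pan-neuron markers 12 were higher and 3 lower (8439 and 9015 against 10304.5 and 10281.5 CPM). All tested markers of oligodendrocyte precursors (10), oligodendrocytes (9) and microglia (12) were higher. The vessel and blood lists gave 4 higher and 1 lower of 10 endothelial, 3 and 1 of 7 mural, and 3 and 0 of 6 erythrocyte markers. Of 10 progenitor and cycling markers 8 were lower and 1 higher (253 and 283 against 135 and 133 CPM). Of 6 tested choroid plexus markers 5 were lower and 1 higher (400 and 781 against 7.77 and 10.1 CPM). No marker on the astrocyte or neuron lists was at 0 in any library. The part of these shifts in the results on the respiratory chain was not tested, and in bulk libraries a smaller number of cells of a type and less RNA per cell cannot be told apart. Nothing in the sources used here says that the libraries came from separate mice, so the p-values measure the spread between these libraries, which may be technical.

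Summed over the members, the transcripts of the respiratory chain were higher in the Ezh2 cKO libraries. The 108 members together took 2.74% and 3.16% of all counts in Ezh2 f/f against 4.28% and 4.19% in Ezh2 cKO. The 13 mitochondrially encoded members took 1.64% and 2.02% against 2.79% and 2.77%. The 95 nuclear-encoded members took 1.10% and 1.14% against 1.49% and 1.41%. Of the 104 members that passed the low-count filter, 69 were higher (66.3%, against 34.7% of all genes tested) and 5 were lower (4.81%, against 33.6%), and 30 did not pass the test. The median log2 fold change of the tested members was 0.35, against 0.015 over all genes. The rise was mostly modest in size, since 7 members rose by 2-fold or more and 0 fell by as much. Both Ezh2 cKO libraries lay above both Ezh2 f/f libraries in 83 members and below them in 10, against 42.8% and 41.5% of all genes tested. Leaving out Ezh2 cKO replicate 1 lowered the count of higher members, and leaving out Ezh2 cKO replicate 2 lowered that of lower members. Each also lowered the matching count over all genes tested, but by a smaller share than among the members. The median log2 fold change of nuclear-encoded subunits was 0.35 without the former library and 0.40 without the latter.

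**Figure D1:**
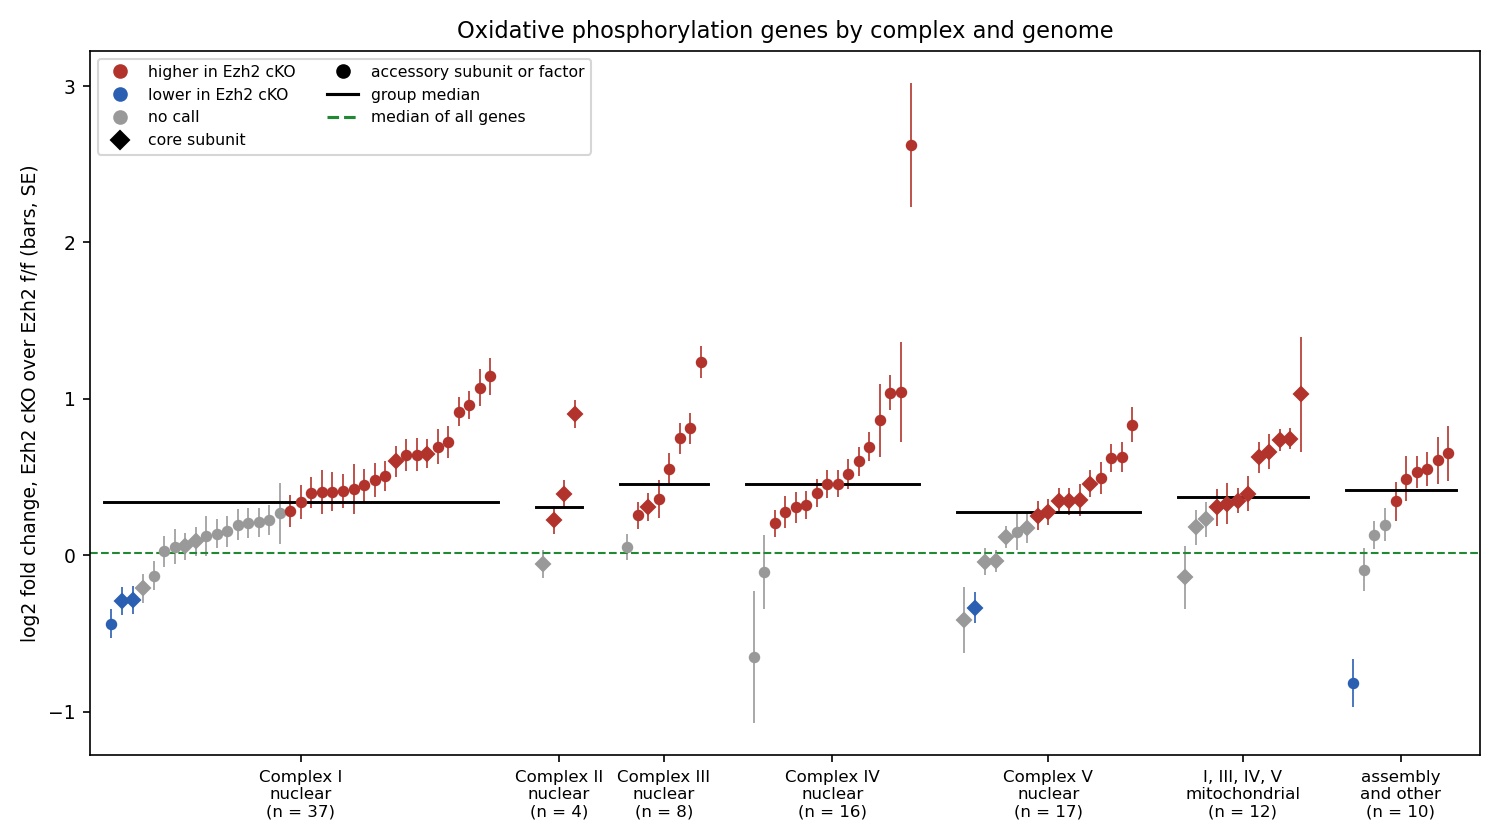
Each point is a tested member, with its log2 fold change of Ezh2 cKO over Ezh2 f/f on the vertical axis and its SE as the bar (2 libraries per group), arranged by complex and genome in order of size. Black lines are group medians, between 0.28 for complex V and 0.46 for complexes III and IV among nuclear subunits, and the dashed line is the median of all genes, 0.015; diamonds are core subunits and colours give the edgeR call.

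Among nuclear-encoded subunits, 54 of 82 tested were higher and 4 were lower, with a median log2 fold change of 0.35. Every complex had more higher than lower calls. Complexes III and IV stood at a median of 0.46, with 7 of 8 and 14 of 16 tested subunits higher and 0 lower in either. Complex I had a median of 0.34 with 20 of 37 higher and 3 lower, complex II a median of 0.31 with 3 of 4 higher, and complex V a median of 0.28 with 10 of 17 higher and 1 lower. These medians were not compared with each other by a test. The calls also differed by role, which is not independent of complex, since 12 of the 24 core subunits belong to complex V. Of 58 tested accessory subunits, 42 were higher and 1 lower (median 0.42), whereas of 24 core subunits 12 were higher and 3 lower (median 0.20). In complex I the 7 core subunits gave 2 higher and 2 lower calls with a median of 0.057. Each count is 28.6%, near the 34.7% higher and 33.6% lower of all genes tested. Of the 30 accessory subunits of complex I, 18 were higher (60%) and 1 lower (3.33%), with a median of 0.40. This contrast between roles is a description, with no test behind it.

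Respiratory chain genes share a few factor motifs near their start sites, so promoters are shown for the 6 members with the largest rises and the 2 with the largest falls that passed the test and had a window, whether or not they held a motif. RefSeq windows of 300 bases (GRCm38.p6, 250 before and 50 after the start) matched 77 of the 95 nuclear-encoded members. In them the motif GCGCATGC of NRF1, CCGGAAGT of ETS factors including GABP and AAGATGGC of YY1 were searched on both strands. Each line gives the 120 bases before the start and the first 30 after it, 5′ to 3′ on the strand of the gene, and capitals mark the motif matches, on either strand.
Uqcr11, chr10:80406792-80406941, minus strand: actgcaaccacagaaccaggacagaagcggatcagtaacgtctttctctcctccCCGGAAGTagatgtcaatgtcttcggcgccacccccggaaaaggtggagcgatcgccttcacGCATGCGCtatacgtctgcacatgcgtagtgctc
Ndufc1, chr3:51408926-51409075, minus strand: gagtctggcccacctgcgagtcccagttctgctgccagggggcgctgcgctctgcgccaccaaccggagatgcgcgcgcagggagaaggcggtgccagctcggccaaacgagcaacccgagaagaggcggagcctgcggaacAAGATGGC
Ndufs5, chr4:123718157-123718306, minus strand: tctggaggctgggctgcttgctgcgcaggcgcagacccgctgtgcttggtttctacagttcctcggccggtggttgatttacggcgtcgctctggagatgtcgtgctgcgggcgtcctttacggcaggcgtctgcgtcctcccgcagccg
Cox8a, chr19:7217587-7217736, minus strand: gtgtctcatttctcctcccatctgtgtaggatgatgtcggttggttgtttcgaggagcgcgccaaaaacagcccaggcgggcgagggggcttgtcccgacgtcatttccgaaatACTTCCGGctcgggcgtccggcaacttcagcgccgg
Ndufa6, chr15:82354262-82354411, minus strand: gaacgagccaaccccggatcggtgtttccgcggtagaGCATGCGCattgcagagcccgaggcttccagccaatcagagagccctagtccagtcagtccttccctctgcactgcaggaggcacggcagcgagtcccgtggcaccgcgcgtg
Ndufb3, chr1:58586277-58586426, plus strand: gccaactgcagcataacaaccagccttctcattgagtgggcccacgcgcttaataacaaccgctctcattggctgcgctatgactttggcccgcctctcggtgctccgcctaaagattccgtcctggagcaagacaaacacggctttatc
Ndufb7, chr8:83566638-83566787, plus strand: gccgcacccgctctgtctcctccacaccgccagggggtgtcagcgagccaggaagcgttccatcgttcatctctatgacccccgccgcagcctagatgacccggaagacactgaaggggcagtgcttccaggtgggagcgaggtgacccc
Atp5g2, chr15:102671018-102671167, minus strand: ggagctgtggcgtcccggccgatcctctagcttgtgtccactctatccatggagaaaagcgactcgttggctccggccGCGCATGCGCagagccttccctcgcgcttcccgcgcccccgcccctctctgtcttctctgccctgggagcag
Uqcr11 holds an ETS match and an NRF1 match, Ndufa6 an NRF1 match, and Ndufc1 a YY1 match 22 bases after the start. Cox8a holds an ETS match in the stretch shown and another past its end, 31 bases after the start. Atp5g2, which fell, holds NRF1 matches that overlap on opposite strands. Of the others that rose, Ndufs5 and Ndufb3 hold none of the 3 motifs anywhere in their windows, and neither does Ndufb7, which fell.

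Over the 69 nuclear subunit genes with a window, 10 held the NRF1 motif (14.5%, against 3.05% of 27025 genes with a window), 5 the ETS motif (7.25% against 4.31%) and 10 the YY1 motif (14.5% against 3.19%). Any of the 3 motifs was present in 24 of the 69 (34.8% against 9.91%). Of the 10 YY1 matches in these genes, 8 lay on the sense strand within the first 50 bases after the start, against 30.6% of the 927 matches in all windows. Among the 42 of these genes that were higher in Ezh2 cKO, 6 held the NRF1, 4 the ETS and 5 the YY1 motif, and 14 held any of them. A match is a description of the letters, not of binding.

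In complex I, the supernumerary subunits led. Ndufc1, a small membrane subunit, measured 25.5 and 30.7 CPM in Ezh2 f/f against 67.3 and 56.8 CPM in Ezh2 cKO, with a log2 fold change of 1.14 (SE 0.12, edgeR adjusted p = 1.17e-06). Ndufs5 measured 46.0 and 54.5 against 116 and 95.3 CPM (log2 fold change 1.07, SE 0.12, edgeR adjusted p = 2.22e-06). Ndufa6 measured 41.7 and 40.0 against 80.4 and 78.7 CPM (0.96, SE 0.09, edgeR adjusted p = 4.88e-07). In each of the 3 genes both Ezh2 cKO libraries were well above both Ezh2 f/f libraries. Ndufb7 went the other way, from 126 and 125 to 96.8 and 88.3 CPM (log2 fold change -0.44, SE 0.09, edgeR adjusted p = 0.00084), and was the only accessory subunit called lower in any complex.

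The core subunits of the peripheral arm of complex I, the arm that binds NADH and holds the iron-sulphur clusters, did not move together. Ndufs1, the largest iron-sulphur subunit, measured 51.3 and 51.8 CPM in Ezh2 f/f against 78.0 and 83.7 CPM in Ezh2 cKO (log2 fold change 0.65, SE 0.09, edgeR adjusted p = 2.78e-05). Ndufs8, another iron-sulphur subunit, measured 70.0 and 71.9 against 115 and 99.4 CPM (0.60, SE 0.10, edgeR adjusted p = 0.000118). Both rose, while the flavin subunit Ndufv1 fell. Its level was 234 and 218 CPM in Ezh2 f/f against 191 and 178 CPM in Ezh2 cKO (log2 fold change -0.29, SE 0.09, edgeR adjusted p = 0.0100). Ndufs3, a core subunit of the quinone module, fell from 136 and 140 to 116 and 111 CPM (-0.28, SE 0.09, edgeR adjusted p = 0.0119). These decreases were small, with no overlap between the groups, and both calls were lost without Ezh2 cKO replicate 2 (edgeR adjusted p = 0.0859 for Ndufv1 and 0.0744 for Ndufs3), that of Ndufv1 also without Ezh2 f/f replicate 1 (0.0546). Ndufs7 missed the threshold at 105 and 103 against 88.8 and 90.8 CPM (-0.21, SE 0.09, edgeR adjusted p = 0.0517). Ndufv2 overlapped between the groups (log2 fold change 0.09, SE 0.09).

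Assembly factors of complex I build the enzyme without staying in it. Of the 8 factors, all tested, 5 were higher and 1 lower, with a median log2 fold change of 0.51. Ndufaf8 measured 8.84 and 7.06 CPM in Ezh2 f/f against 13.2 and 11.8 CPM in Ezh2 cKO (log2 fold change 0.65, SE 0.18, edgeR adjusted p = 0.00451). Ndufaf2 rose by 0.61 (SE 0.15) and Ndufaf5, which modifies an arginine of Ndufs7, by 0.55 (SE 0.11) on the same scale. Ndufaf6 was the exception, at 16.5 and 15.7 against 8.85 and 9.35 CPM (log2 fold change -0.82, SE 0.15, edgeR adjusted p = 0.000302), the largest decrease that passed the test among the members. The call of Ndufaf8 was lost without Ezh2 cKO replicate 1 (edgeR adjusted p = 0.0631).

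Complex II, succinate dehydrogenase, is also an enzyme of the TCA cycle and has no mitochondrially encoded subunit. Sdha, its flavoprotein, rose from 127 and 135 CPM in Ezh2 f/f to 250 and 241 CPM in Ezh2 cKO (log2 fold change 0.90, SE 0.09, edgeR adjusted p = 6.09e-07). Sdhb, the iron-sulphur partner of Sdha, measured 179 and 184 against 182 and 167 CPM, and the groups overlapped (log2 fold change -0.06, SE 0.09, edgeR adjusted p = 0.596). The membrane anchors lay between them. Sdhc measured 104 and 110 against 141 and 140 CPM (0.39, SE 0.09, edgeR adjusted p = 0.00144). Sdhd measured 108 and 106 against 127 and 123 CPM (0.23, SE 0.09, edgeR adjusted p = 0.0363), a call lost on omitting any library but Ezh2 f/f replicate 1 (edgeR adjusted p = 0.0743 to 0.144). It was also lost in DESeq2 (adjusted p = 0.0636) and with the gene length trend removed (edgeR adjusted p = 0.0791).

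In complex III the small accessory subunits rose most. Uqcr11 measured 69.3 and 70.4 CPM in Ezh2 f/f against 178 and 150 CPM in Ezh2 cKO (log2 fold change 1.23, SE 0.10, edgeR adjusted p = 1.32e-07), the largest rise of any member but Cox6a2. Uqcrq measured 122 and 129 against 237 and 203 CPM (0.81, SE 0.10, edgeR adjusted p = 5.03e-06) and Uqcr10 measured 78.5 and 74.2 against 137 and 120 CPM (0.75, SE 0.10, edgeR adjusted p = 1.27e-05). The larger subunits moved less. The Rieske iron-sulphur protein Uqcrfs1 measured 111 and 107 against 131 and 138 CPM (0.31, SE 0.09), and Uqcrc1, historically called a core protein but counted here as accessory since it holds no redox centre, measured 263 and 281 against 332 and 318 CPM (0.25, SE 0.08). Its partner Uqcrc2 measured 168 and 166 against 173 and 174 CPM and did not pass the test (0.05, SE 0.09, edgeR adjusted p = 0.602). The call of Uqcrc1 was lost without Ezh2 cKO replicate 1 (edgeR adjusted p = 0.104) and that of Uqcrfs1 without Ezh2 cKO replicate 2 (0.0608).

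Complex IV, cytochrome c oxidase, has 18 nuclear subunit genes among the members, many of them in pairs of a general and a tissue-restricted isoform. Its general isoforms carried nearly all of the transcript. Cox8a measured 172 and 204 CPM in Ezh2 f/f against 428 and 346 CPM in Ezh2 cKO (log2 fold change 1.04, SE 0.11, edgeR adjusted p = 1.71e-06) and was the abundant isoform with the largest rise. Cox7b rose from 133 and 138 to 233 and 205 CPM (0.69, SE 0.09), Cox6b1 from 204 and 226 to 332 and 285 CPM (0.52, SE 0.10) and Cox6a1 from 332 and 335 to 489 and 428 CPM (0.46, SE 0.09). Ndufa4, first assigned to complex I and now counted with complex IV, rose from 202 and 221 to 299 and 282 CPM (0.46, SE 0.09). The subunits Cox5b (0.32, SE 0.09), Cox7a2 (0.31, SE 0.10) and Cox5a (0.28, SE 0.10) rose less. Cox4i1, which binds adenine nucleotides, passed the threshold narrowly at 346 and 352 against 427 and 378 CPM (0.21, SE 0.09, edgeR adjusted p = 0.0486). Without Ezh2 cKO replicate 1 the calls of Cox5b, Cox7a2, Cox5a and Cox4i1 were lost, with edgeR adjusted p values of 0.0838, 0.186, 0.312 and 0.339, and without Ezh2 f/f replicate 2 those of Cox5a (0.0664) and Cox4i1 (0.0576), the latter also without Ezh2 f/f replicate 1 (0.0524). DESeq2 gave adjusted p values of 0.0802 for Cox5a and 0.0703 for Cox4i1, and the fit with the gene length trend removed gave edgeR adjusted p values of 0.167 and 0.320.

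Several tissue-restricted isoforms rose from very low levels. Cox6a2, the heart and skeletal muscle isoform, had 8 and 33 counts in Ezh2 f/f against 152 and 121 counts in Ezh2 cKO, with a log2 fold change of 2.62 (SE 0.40, edgeR adjusted p = 4.41e-05), the largest of any member. The Ezh2 f/f libraries lay apart from each other here, at 0.468 and 2.10 CPM, and both stayed below the 8.62 and 6.98 CPM of the Ezh2 cKO libraries. The size of the rise depended on them, at 1.90 with Ezh2 f/f replicate 1 omitted and 4.04 with Ezh2 f/f replicate 2 omitted, on the log2 scale. Cox4i2, the isoform known from lung and from low oxygen, had 20 and 23 against 52 and 43 counts (1.04, SE 0.32, edgeR adjusted p = 0.00977). Ndufa4l2, the hypoxia-inducible relative of Ndufa4, had 50 and 61 against 113 and 103 counts (0.86, SE 0.23, edgeR adjusted p = 0.00469). Without Ezh2 cKO replicate 1 the calls of Cox4i2 (edgeR adjusted p = 0.0869) and Ndufa4l2 (0.0523) were lost, as was that of Cox4i2 in DESeq2 (adjusted p = 0.0817). Not all low isoforms followed. Cox7a1, the muscle counterpart of Cox7a2, had 23 and 17 against 11 and 16 counts (-0.65, SE 0.42, edgeR adjusted p = 0.184), and Cox6b2, known from testis, overlapped between the groups at 73 and 84 against 86 and 70 counts. Cox8b had 0 and 0 against 1 and 1 counts, Cox7b2 had 1 and 3 against 4 and 5, and Ndufb11b had 4 and 1 against 0 and 0, and these 3 genes did not pass the low-count filter.

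Per length, as FPKM, the restricted isoforms remained a small share of their pairs. Cox6a2 made up 0.145% and 0.642% of the summed FPKM of Cox6a1 and Cox6a2 in Ezh2 f/f against 1.79% and 1.66% in Ezh2 cKO. Cox4i2 made up 0.661% and 0.811% of its pair in Ezh2 f/f against 1.34% and 1.27% in Ezh2 cKO, and Ndufa4l2 1.79% and 2.17% against 2.63% and 2.59%. These shares were higher in both Ezh2 cKO libraries, whereas in the other pairs they were lower, for Cox7a1 at 1.39% and 1.04% against 0.469% and 0.811% and for Cox6b2 at 1.32% and 1.49% against 0.931% and 0.896%. With 2 libraries against 2 the exact permutation test cannot go below a two-sided p of 0.333, which each of these shares reached.

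**Figure D2:**
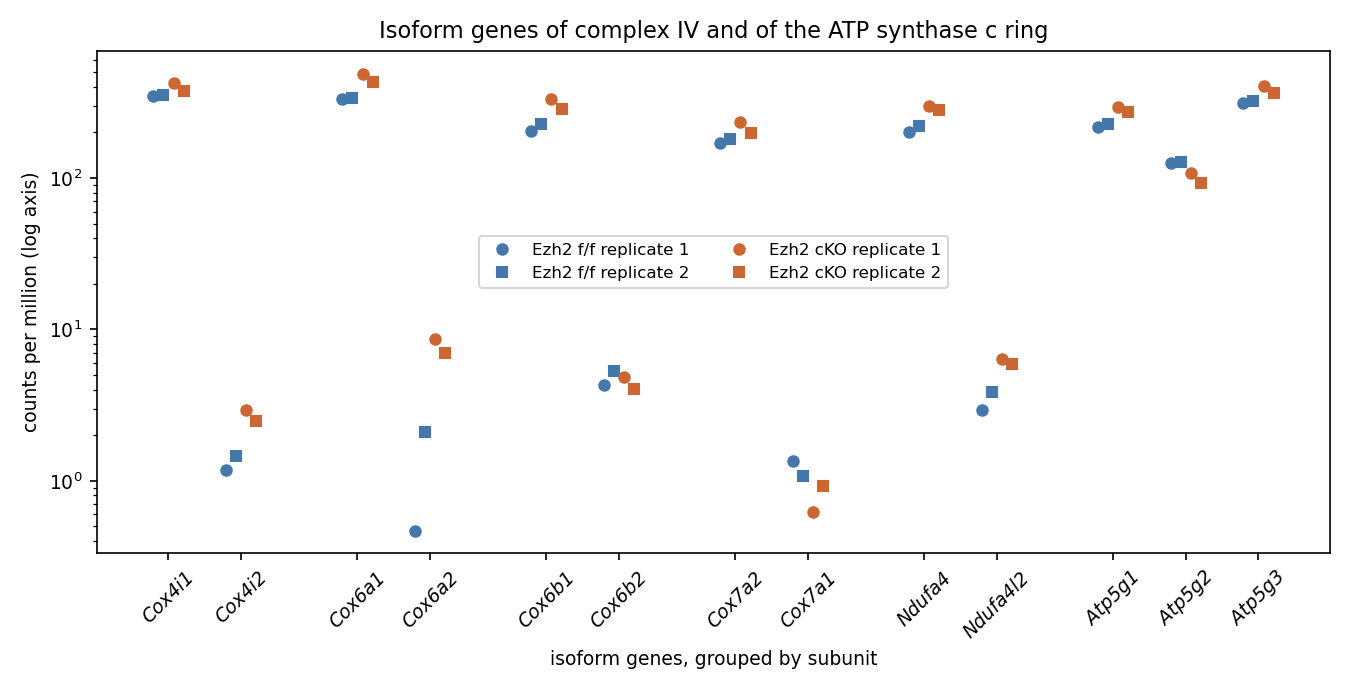
CPM on a log axis in each of the 4 libraries (circles replicate 1, squares replicate 2, blue Ezh2 f/f, orange Ezh2 cKO) for isoform genes grouped by subunit. Cox6a2, Cox4i2 and Ndufa4l2 sit below 10 CPM yet higher in Ezh2 cKO than in Ezh2 f/f, and Atp5g2 is the only c subunit gene with both Ezh2 cKO libraries below both Ezh2 f/f libraries.

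In complex V the alpha, beta and gamma subunits did not pass the test. Of its 12 nuclear-encoded core subunits, 6 were higher (50%, against 34.7% of all genes tested) and 1 lower (8.33%, against 33.6%). The largest rise among them was 0.46 on the log2 scale. The alpha and beta subunits are the most abundant nuclear-encoded members by count. Atp5b, the catalytic beta subunit, measured 1359 and 1451 CPM in Ezh2 f/f against 1543 and 1498 CPM in Ezh2 cKO (log2 fold change 0.11, SE 0.07, edgeR adjusted p = 0.163). Atp5a1, the alpha subunit, measured 1083 and 1059 against 1040 and 1045 CPM (-0.04, SE 0.07, edgeR adjusted p = 0.642). The gamma subunit Atp5c1, the rotor shaft, overlapped between the groups (-0.04, SE 0.09). Of the 5 accessory membrane subunits, 4 rose, and Atp5l, the g subunit, did not pass the test (0.15, edgeR adjusted p = 0.258). Atp5k, the e subunit at the dimer interface, measured 23.1 and 23.6 against 43.6 and 39.7 CPM (0.84, SE 0.11, edgeR adjusted p = 1.22e-05), Atp5mpl rose by 0.63 (SE 0.10) and Atp5j2, the f subunit, by 0.62 (SE 0.09).

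The c ring of the ATP synthase is made of 1 protein encoded by 3 genes, Atp5g1, Atp5g2 and Atp5g3, which differ in the import sequence that is cut off. Their transcripts moved in opposite directions. Atp5g2 fell from 126 and 128 CPM in Ezh2 f/f to 109 and 93.0 CPM in Ezh2 cKO (log2 fold change -0.34, SE 0.10, edgeR adjusted p = 0.00793), a call lost without Ezh2 cKO replicate 2 (0.102). Atp5g1 rose from 218 and 228 to 295 and 272 CPM (0.35, SE 0.09, edgeR adjusted p = 0.00279) and Atp5g3 from 312 and 322 to 402 and 366 CPM (0.28, SE 0.09, edgeR adjusted p = 0.0104, and 0.110 without Ezh2 cKO replicate 1 or 0.0934 with the gene length trend removed). In shares of the summed FPKM of the 3 genes, Atp5g2 went from 28.7% and 28.3% to 21.0% and 19.9%, Atp5g1 from 16.9% and 17.1% to 19.4% and 19.8%, and Atp5g3 from 54.5% and 54.6% to 59.6% and 60.2%. The replicates of each group lay within about 1 percentage point of each other, and the exact permutation p was 0.333, its smallest value, for each share.

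The mitochondrial genome encodes 13 of the subunits, and 9 of the 12 tested mRNAs were higher in Ezh2 cKO and 0 lower, with a median log2 fold change of 0.37. Their levels ran from the highest to among the lowest of the members, and mt-Cytb and mt-Co1 led in both groups. On the FPKM scale mt-Cytb, the cytochrome b of complex III, stood at 4094 ± 502 (SD, n = 2) in Ezh2 f/f against 5528 ± 257 in Ezh2 cKO, and mt-Co1, the catalytic subunit of complex IV, at 3577 ± 348 and 6359 ± 21.5. On this scale mt-Co1 lay below mt-Cytb in both Ezh2 f/f libraries and above it in both Ezh2 cKO libraries. In CPM mt-Co1 measured 5280 and 6118 against 9680 and 9435 (log2 fold change 0.75, SE 0.07, edgeR adjusted p = 2.97e-07), and mt-Cytb, the lower of the pair by count in every library, measured 4389 and 5271 against 6420 and 5887 CPM (0.35, SE 0.08, edgeR adjusted p = 0.00131).

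The complex I mRNAs of the mitochondrial genome encode its proton-pumping arm and differed among themselves. Among them mt-Nd5 measured 886 and 876 against 1480 and 1454 CPM (log2 fold change 0.74, SE 0.07, edgeR adjusted p = 4.82e-07) and mt-Nd4 measured 1457 and 1909 against 2650 and 2543 CPM (0.63, SE 0.10, edgeR adjusted p = 6.70e-05). Both were clear of the spread between replicates. mt-Nd1 measured 2777 and 3902 against 4351 and 4428 CPM (0.39, SE 0.11, edgeR adjusted p = 0.00583). mt-Nd6, the only mRNA on the light strand, measured 222 and 317 against 321 and 356 CPM (0.33, SE 0.13, edgeR adjusted p = 0.0369). mt-Nd2 measured 1549 and 2143 against 2046 and 2131 CPM (0.18, SE 0.11, edgeR adjusted p = 0.166) and mt-Nd3 measured 8.14 and 11.96 against 9.70 and 8.48 CPM (-0.14, SE 0.20, edgeR adjusted p = 0.545). In these last mRNAs the groups overlapped. The calls of mt-Nd1 and mt-Nd6 were lost without either Ezh2 cKO library (edgeR adjusted p = 0.0755 and 0.0942 for mt-Nd1, 0.112 and 0.279 for mt-Nd6), and that of mt-Nd6 also without Ezh2 f/f replicate 1 (0.350). DESeq2 called neither (adjusted p = 0.169 and 0.304). Leaving out Ezh2 f/f replicate 1 lowered the median over the mitochondrially encoded mRNAs to 0.21 and leaving out Ezh2 f/f replicate 2 raised it to 0.63, since these 2 libraries differed more from each other than the Ezh2 cKO libraries did.

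**Figure D3:**
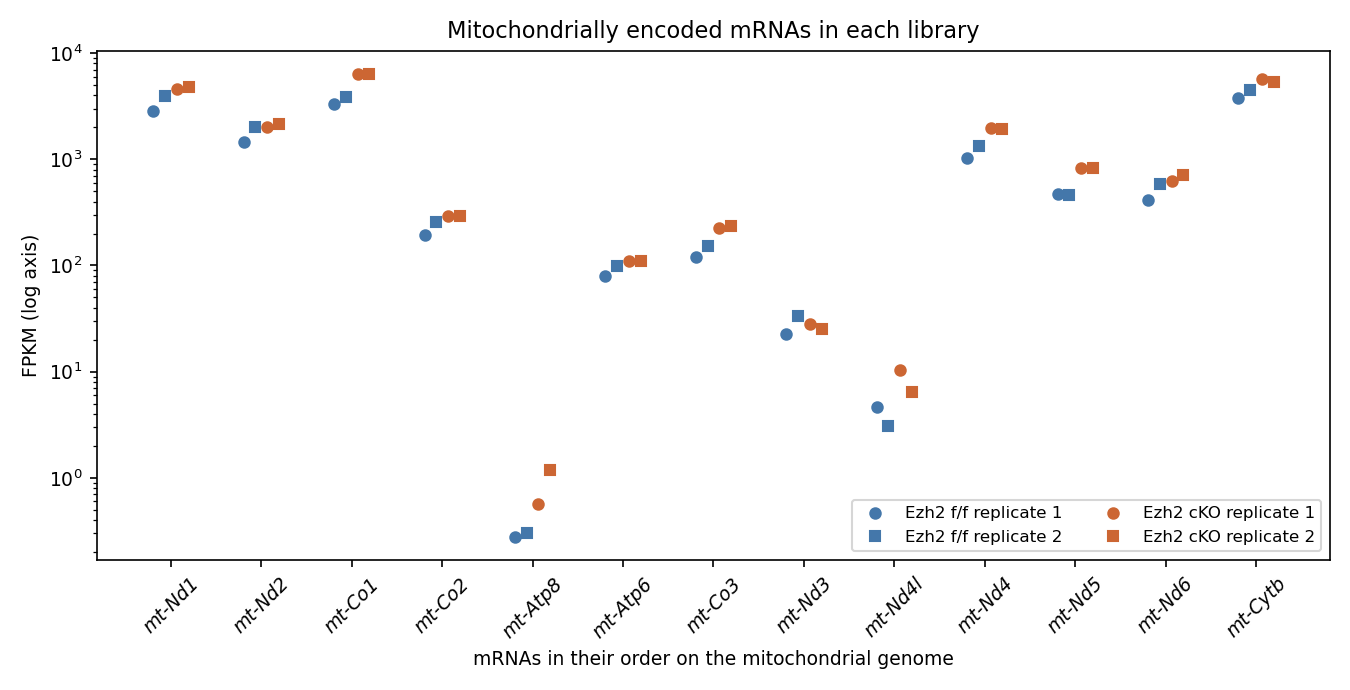
FPKM on a log axis of the 13 mitochondrially encoded mRNAs in each of the 4 libraries, in their order along the genome (circles replicate 1, squares replicate 2, blue Ezh2 f/f, orange Ezh2 cKO). Levels range from under 1 FPKM for mt-Atp8 in the Ezh2 f/f libraries to 6359 for the Ezh2 cKO mean of mt-Co1, and the groups overlap in mt-Nd2 and mt-Nd3.

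Some of these mRNAs were read at levels far below their neighbours, and the sequences show where their reads can be shared. The reading frames of mt-Atp8 and mt-Atp6 overlap by 43 bases and those of mt-Nd4l and mt-Nd4 by 7 bases, and the overlaps are given here in capitals with 20 bases on each side, on the plus strand of the mitochondrial genome (GRCm38).
mt-Atp8 and mt-Atp6, chrM:7907-7989: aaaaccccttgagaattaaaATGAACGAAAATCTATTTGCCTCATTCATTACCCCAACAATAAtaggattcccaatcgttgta
mt-Nd4l and mt-Nd4, chrM:10147-10193: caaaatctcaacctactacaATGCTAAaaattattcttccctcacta
mt-Atp8, a small membrane subunit of complex V, had 1 and 1 counts in Ezh2 f/f against 2 and 4 in Ezh2 cKO and did not pass the low-count filter, and mt-Atp6, the proton channel subunit, had 941 and 1091 against 1289 and 1260 counts (log2 fold change 0.23, SE 0.11, edgeR adjusted p = 0.0811). mt-Nd4l had 24 and 15 against 53 and 32 counts (1.03, SE 0.37, edgeR adjusted p = 0.0224), a call lost without Ezh2 cKO replicate 1 (0.260) or Ezh2 f/f replicate 2 (0.0788), and in DESeq2 (adjusted p = 0.117). The part of the shared bases in these low counts was not tested.

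A second source of sharing was measured. A block of chromosome 1 holds nuclear copies of 7 of these genes, annotated as unprocessed pseudogenes and at least 99% identical to them over the matched bases, and reads were counted on each. Of the reads counted on either mt-Atp6 or its copy, 70.7% to 72.7% in the 4 libraries stood on the copy. The share on the copy was 58.2% to 64.8% for mt-Nd3, 48.2% to 50.9% for mt-Co3, 43.1% to 44.5% for mt-Co2 and 44.2% to 61.0% for mt-Nd4l. It was at most 1.04% for mt-Co1 and 0.876% for mt-Nd4, whose copies are partial. The levels of the first 5 mRNAs are therefore uncertain. With the reads of the copies added to their genes, an alternative chosen after seeing the data, 70 members were higher and 5 lower. mt-Atp6 then passed the threshold (log2 fold change 0.24, edgeR adjusted p = 0.0353), and the median of the mitochondrially encoded mRNAs was 0.37 as before. For mt-Co2 the counts were 2303 and 2852 against 3475 and 3368 (0.31, SE 0.12, edgeR adjusted p = 0.0321), a call lost without Ezh2 f/f replicate 1 (0.347), Ezh2 cKO replicate 1 (0.181) or Ezh2 cKO replicate 2 (0.136), and for mt-Co3 1652 and 1964 against 3032 and 3100 (0.66, SE 0.11, edgeR adjusted p = 0.000128).

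A difference in the balance between the genomes could not be shown with 2 libraries per group. The log2 ratio of mitochondrially encoded to nuclear-encoded subunit counts was 0.62 and 0.87 in Ezh2 f/f against 0.95 and 1.02 in Ezh2 cKO, a difference of 0.24 with the groups apart by less than the distance between the Ezh2 f/f libraries (exact permutation test, two-sided p = 0.333, the smallest possible). On summed FPKM the difference was 0.08 (exact permutation p = 0.667), and on the mean of log2(CPM + 1) it was 0.04 (exact permutation p = 1). The median log2 fold changes were 0.37 for mitochondrially encoded and 0.35 for nuclear-encoded subunits. The ribosomal RNAs of the same genome, named here after their values were seen, moved more. mt-Rnr1 had 2041 and 2769 counts in Ezh2 f/f against 16837 and 17889 in Ezh2 cKO (log2 fold change 2.75, SE 0.14), and mt-Rnr2 had 4044 and 4356 against 21633 and 22466 (2.30, SE 0.09).

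Subunit genes are short, and their change ran with length. The median gene length, worked out from the deposited counts and FPKM, was 1578 bases for the 82 tested nuclear subunits against 4106 bases for all genes tested. Across these 82 genes, which are not independent replicates and share the same 4 libraries, the correlation of log2 length with log2 fold change was r = -0.32 (Spearman's rho = -0.38), whereas across all genes tested it was r = 0.047 (rho = 0.0092). Core subunits were the longer ones, with a median of 2179.5 bases against 1183.5 bases for accessory subunits, and the part of length in the contrast between them was not tested. With a gene length trend removed from the counts, 65 members were higher and 7 lower, the median of nuclear subunits was 0.35, and that of complex V was 0.18.

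**Figure D4:**
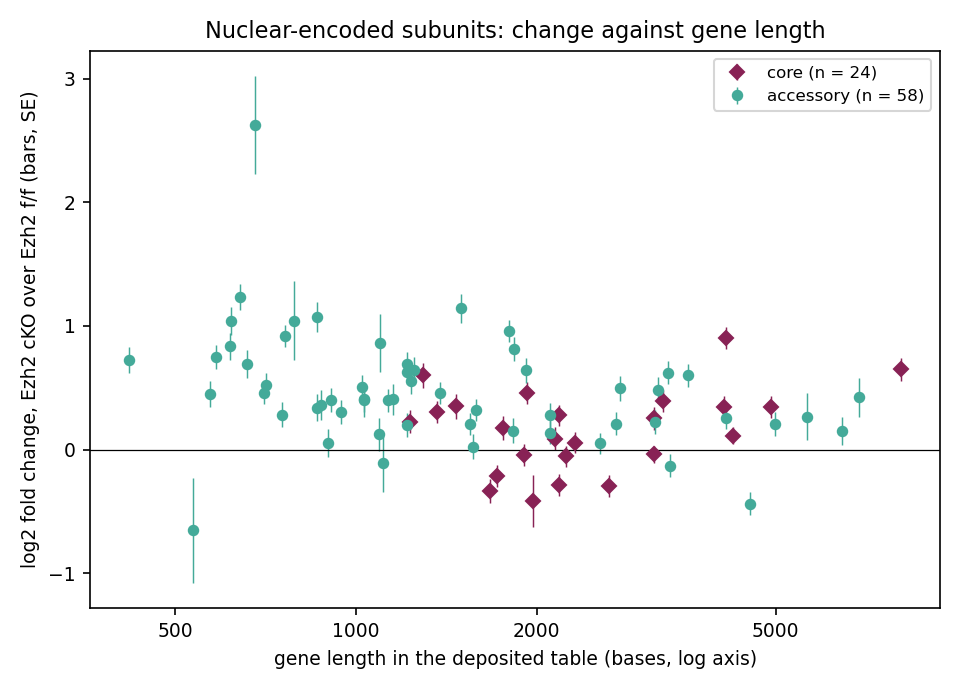
Log2 fold change of Ezh2 cKO over Ezh2 f/f (bars, SE, 2 libraries per group) against gene length in bases on a log axis for the 82 tested nuclear-encoded subunits. Gene length was worked out from the deposited counts and FPKM. Short accessory subunits reach the highest values, led by Cox6a2 at 2.62, and core subunits lie between -0.41 and 0.90.

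Transcripts of the pathway around the complexes were described from gene lists, whose counts stand beside 34.7% higher and 33.6% lower over all genes tested. Of 38 tested factors of the respiratory chain outside the symbol rule, 21 were higher (55.3%) and 8 lower (21.1%), with a median log2 fold change of 0.45. Coa6, a copper-related assembly factor of complex IV, rose from 1.76 and 1.46 to 13.9 and 14.7 CPM (3.14, SE 0.21) and Coa3 from 19.7 and 23.7 to 88.5 and 82.1 CPM (1.98, SE 0.11). The complex IV factors Cox20 (-1.27, SE 0.35) and Sco1 (-0.81, SE 0.16) fell, the former call lost without Ezh2 f/f replicate 1 (edgeR adjusted p = 0.0779) or Ezh2 cKO replicate 2 (0.0669). Of 28 genes of the TCA cycle and pyruvate entry, which feed electrons to the chain, 18 were higher (64.3%) and 1 lower (3.57%), with a median of 0.45. Ogdh, of the oxoglutarate dehydrogenase complex, rose from 68.1 and 66.4 to 259 and 253 CPM (1.93, SE 0.09), and Me3, mitochondrial malic enzyme, by 2.46 (SE 0.15). Dlst, the partner of Ogdh, fell by 0.48 (SE 0.09) on the log2 scale. Of 15 tested genes of uncoupling and mitochondrial redox, 11 were higher (73.3%) and 3 lower (20%). The peroxiredoxin Prdx3 (16.57 and 16.04 against 74.19 and 75.38 CPM) and Txnrd2 (1.43, SE 0.17) led the rises, and the carriers Slc25a27 (-0.75, SE 0.09) and Slc25a14 (-0.32, SE 0.10) were lower, with the call of Slc25a14 lost on omitting any library but Ezh2 f/f replicate 1 (edgeR adjusted p = 0.0502 to 0.0917).

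Other lists had lower medians. Of 28 tested carriers, pores and mass markers, 13 were higher (46.4%) and 5 lower (17.9%), against 34.7% and 33.6% of all genes tested (median 0.14), with Slc25a4, the ADP/ATP carrier, at 461 and 462 against 861 and 856 CPM (0.90, SE 0.08), Slc25a11 also at 0.90 (SE 0.10), and the inner membrane and matrix chaperones Phb2 (-1.03, SE 0.09) and Hspa9 (-0.82, SE 0.09) lower. Of 28 tested genes that copy, transcribe and process mitochondrial DNA and RNA, 4 were higher (14.3%) and 10 lower (35.7%), the latter near the share of all genes (median -0.14). Top1mt (1.66, SE 0.17) and Fastkd2 (1.05, SE 0.20) rose, and the helicase Twnk (-0.96, SE 0.14) and the RNase P subunit Prorp (-1.30, SE 0.18) fell. Of 17 regulators of mitochondrial biogenesis, 5 were higher (29.4%) and 6 lower (35.3%), both near the shares of all genes (median -0.20). Pparg (1.91, SE 0.46) and the deacetylase Sirt3 (1.71, SE 0.13) rose, and Gabpb1, a subunit of the ETS factor GABP, fell from 52.9 and 55.5 to 17.7 and 16.9 CPM (-1.65, SE 0.11). Esrrb measured 1.35 and 7.64 against 0.964 and 0.981 CPM (-2.18, SE 0.60), and its call was lost without Ezh2 f/f replicate 2 (-0.47, edgeR adjusted p = 0.405) or either Ezh2 cKO library (0.0898 and 0.101). A further 3 genes that act on the promoters or genome shown here were chosen by hand after their values were seen. The gene of YY1, whose motif is also shown, is not among them. Nrf1, which binds the NRF1 motif, fell by 1.24 (SE 0.11), the mitochondrial transcription factor Tfam fell by 0.72 (SE 0.11), and the coactivator Ppargc1a rose by 0.60 (SE 0.17).

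Reads of some nuclear-encoded members can also be shared with copies or with transcripts of other genes. Of the 84 nuclear subunit genes, 41 had a stretch of at least 50 bases that matched another transcript at 95% identity or more, and in 9 such stretches covered over 50% of the transcript. These are not all matches to copies. Atp5j matched Gabpa and Cox4i1 matched Emc8, which are different genes, each at 100% identity. Cox5b-ps matched Cox5b over its whole length at 99.2% identity, and its 320 and 320 against 438 and 430 counts cannot be told apart from those of Cox5b. Atp5o, whose transcript was covered to 92.0% by such matches, was read at only 5.80 and 6.56 against 4.71 and 4.56 CPM (log2 fold change -0.41, SE 0.21, edgeR adjusted p = 0.0956), and that level is uncertain. The part of these matches in the results on nuclear members was not tested.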

How the data were processed

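RNA from 2 Ezh2 f/f and 2 Ezh2 cKO libraries was sequenced on the Illumina HiSeq platform. The authors deposited read counts per gene and FPKM for 29224 genes. The submitters' processing notes name Bowtie2 2.2.3, TopHat2 2.0.12, HTSeq 0.6.0 and the mm9 build. The annotation and strand setting are not given in the sources used here. Deposited positions equalled those of GRCm38 (GENCODE M21) for 16 of 108 members, 13 of them mitochondrial, so no deposited nuclear position is printed. The authors' own comparison columns (fold changes and p-values) were not used.

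Counts were tested with edgeR 4.0.16 (R 4.3.3; filterByExpr, TMM, quasi-likelihood F test of group), with Benjamini-Hochberg adjustment over 16793 genes and a threshold of 0.05. DESeq2 1.42.0 and limma 3.58.1 on log2(FPKM + 1) were alternatives, as were other scalings, filters, gene length, replicate blocks and leaving out each library. SEs are those of the log2 fold change. The deposited FPKM served for levels between genes. Depth limits low genes: 3 counts equal 0.170 to 0.191 CPM, for counting error only. In counts simulated for Ezh2 cKO against Ezh2 f/f over 16408 genes, edgeR recovered 194 of 200 changed genes with 7 false calls. The changes set there were 2-fold or more and in these 200 genes only. The figures therefore do not carry over to smaller changes, or to data in which 68.4% of genes passed the test. Copies and other matching transcripts were found by BLAST 2.17.0 on GENCODE M21 transcripts. Promoters are from RefSeq.

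The members and gene lists were chosen with earlier results of these data known. Named genes are Ezh2, the mitochondrial mRNAs, the catalytic and core subunits, isoform families, members that failed the filter, per complex the 3 members with the largest change in each direction that passed the test without overlap, the same for assembly factors, and 2 in each direction per related list. A gene that this rule names is not reported here.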

Additional observations from a re-analysis of the deposited data

How the results depend on the processing

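The counts of higher members stayed between 59 and 81 under the alternatives that kept all libraries, against 69, and those of lower members between 3 and 7, against 5. Over all 16793 genes tested, 4830 were higher in DESeq2, which gave the 59, and 6286 with raw library sizes, which gave the 81, against 5831. Among these, limma on log2(FPKM + 1) with no filter moved a count by over 1.5 times (3 lower). Leaving out each library gave 44 to 69 higher and 2 to 5 lower members, and moved by over 1.5 times the higher count without Ezh2 cKO replicate 1 (44) and the lower count without Ezh2 cKO replicate 2 (2). No group median changed sign. With raw library sizes the medians were 0.43 (nuclear subunits), 0.42 (complex I), 0.39 (II), 0.54 (III), 0.36 (V) and 0.50 (assembly factors and other members), while the median of all genes moved from 0.015 to 0.099. With limma on log2(FPKM + 1) they were 0.42 (nuclear), 0.39 (II), 0.36 (V) and 0.47 (assembly and other). On log2(FPKM + 0.1) they were 0.43 (nuclear), 0.42 (I), 0.39 (II), 0.54 (III), 0.36 (V) and 0.50 (assembly and other). With no filter in limma they were 0.42 (nuclear), 0.39 (II) and 0.36 (V). With a mean count of at least 50 complex II stood at 0.34 and assembly and other members at 0.45, and with no filter on counts the latter stood at 0.35. With the length trend removed complex I stood at 0.41, II at 0.25 and V at 0.18. Leaving out each library, the median ran from 0.30 to 0.40 (nuclear), 0.21 to 0.63 (mitochondrial), 0.26 to 0.41 (I), 0.29 to 0.33 (II), 0.40 to 0.58 (III), 0.38 to 0.53 (IV), 0.23 to 0.31 (V) and 0.35 to 0.45 (assembly and other). The log2 difference in the balance of the genomes was 0.24 on counts, 0.083 on FPKM and 0.045 on mean log2(CPM + 1). With a library left out it ran from 0.12 to 0.36 on counts. Without Ezh2 f/f replicate 1 it changed sign on the other scales, to -0.045 on FPKM and -0.049 on mean log2(CPM + 1). The causes were not tested.

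Of the named genes, 8 changed sign somewhere, none of them past the threshold in the main test. Ndufv2 (-0.0290), Uqcrc2 (-0.0576) and mt-Nd3 (0.319) did so with the length trend removed. With raw library sizes, limma on log2(FPKM + 1), on log2(FPKM + 0.1) and with no filter, in that order, Sdhb came to 0.0282, 0.0270, 0.0273 and 0.0270, Atp5a1 to 0.0452, 0.0450, 0.0451 and 0.0450, and Atp5c1 to 0.0416, 0.0425, 0.0428 and 0.0425. With each library left out, mt-Nd2 ran from -0.0268 to 0.431, mt-Nd3 from -0.386 to 0.160, Sdhb from -0.115 to 0.00293, Atp5c1 from -0.104 to 0.0321 and Cox6b2 from -0.252 to 0.0615. DESeq2 called 59 members higher and 5 lower, and among named genes the calls of mt-Nd4l, mt-Nd1, mt-Nd6, Sdhd, Cox4i1, Cox5a, Cox4i2 and Esrrb were lost. Its size factors in edgeR cost those of Sdhd and Cox4i1, removing the length trend those of Sdhd, Cox4i1, Cox5a and Atp5g3, no filter on counts those of mt-Nd6, mt-Co2, Sdhd, Cox4i1 and Cox5a, and raw library sizes those of Ndufs3 and Slc25a14. limma on log2(FPKM + 1) or log2(FPKM + 0.1) cost that of mt-Nd6, and with no filter those of mt-Nd4l, mt-Nd1, mt-Nd6, mt-Cytb, mt-Co2, Ndufv1, Cox4i1, Cox5a, Atp5g2, Cox20, Esrrb and Slc25a14.

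Libraries of the groups share the numbers 1 and 2 in the labels. With only 2 pairs these are not shown to be pairs. The deviations of same-numbered libraries from their group means correlated at r = 0.130 across 16793 genes. With the replicate block 67 members were higher and 5 lower, the median of nuclear subunits was 0.35, and Sdhd and Cox4i1 lost their calls.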
